A study of Mus musculus with 16 samples.

Results

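Lysosome and mannosidase genes were followed in macrophages that had rested after an encounter with beta-glucan, and 40 of the 3071 genes in the deposited comparison table belonged to them. Of the 40, 33 stood in the Lysosome row of the authors' deposited KEGG enrichment table, and 8 were protein-coding genes named as alpha-mannosidases. One gene, Man2b1, came in by both routes, and Atp6v0d2 and the solute carriers of that row were left out. Before that, the row of the authors' deposited table held 35 of the pathway's 116 genes (30.2%, beside 18.3% of all its annotated genes, authors' adjusted p 0.0943). The comparison table lists only genes with an adjusted p under 0.05 in the authors' DESeq2 comparison of beta-glucan with control, so every member had to differ between the groups. The differences below describe how large and how even they were and are not tests.

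Bone marrow cells of aged C57BL/6 mice, with no genetic change named, were grown into macrophages with 10 ng/mL M-CSF, which drives macrophage differentiation, over 7 days. Control cultures (8 libraries, numbered 2, 3, 5, 7, 9, 10, 12 and 13) received PBS, and beta-glucan cultures (8 libraries, numbered 5 to 10, 12 and 13) received 10 µg/mL of the polysaccharide from the Candida albicans cell wall. Both stimuli lasted 24 hours and were followed by 7 days of rest, after which total RNA was sequenced. The labels give the age only as aged, and they do not say that each library came from a separate mouse.

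Lysosomes are acidic organelles in which hydrolases break down the sugars, proteins, lipids and nucleic acids that macrophages take up in large amounts. Most of these enzymes are glycoproteins that are tagged with mannose 6-phosphate in the Golgi, bound by receptors such as Igf2r, and carried to endosomes in vesicles coated with clathrin and adaptor complexes. Mannosidases remove mannose in several places: in the endoplasmic reticulum and Golgi they trim new N-glycans, in the cytosol they trim free glycans, and in the lysosome they finish glycan breakdown. Many lysosomal genes carry the CLEAR element, an E-box with the core CACGTG that TFEB and its relatives bind.

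RefSeq promoter windows of the GRCm38.p6 build, from 250 bases before to 50 bases after the RefSeq start, were found for 30 of the 40 genes, 7 higher and 23 lower with beta-glucan. A few, 5 in all, are printed to show where the lysosomal motif does and does not occur among genes of both directions. Capitals mark CACGTG in the first 4 windows, which belong to Gla and Sumf1, higher with beta-glucan, and to Igf2r and Glb1, lower. Capitals mark the SP1 letters GGGCGG in the last, that of the mannosidase Man2b1, which has no CACGTG. Gla lies on chrX:134600956-134601255 (minus strand), Sumf1 on chr6:108185534-108185833 (minus), Igf2r on chr17:12769657-12769956 (minus), Glb1 on chr9:114400828-114401127 (plus) and Man2b1 on chr8:85083019-85083318 (plus).
Gla: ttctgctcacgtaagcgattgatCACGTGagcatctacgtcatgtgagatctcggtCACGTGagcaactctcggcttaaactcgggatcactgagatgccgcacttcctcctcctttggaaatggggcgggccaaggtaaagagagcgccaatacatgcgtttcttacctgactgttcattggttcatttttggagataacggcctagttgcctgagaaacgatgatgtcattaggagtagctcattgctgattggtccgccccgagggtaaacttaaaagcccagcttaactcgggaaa
Sumf1: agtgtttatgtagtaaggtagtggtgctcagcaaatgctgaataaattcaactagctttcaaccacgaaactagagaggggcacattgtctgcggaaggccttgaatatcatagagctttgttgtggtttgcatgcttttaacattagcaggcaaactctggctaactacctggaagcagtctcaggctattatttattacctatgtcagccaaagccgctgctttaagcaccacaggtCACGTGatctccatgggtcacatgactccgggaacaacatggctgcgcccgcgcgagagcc
Igf2r: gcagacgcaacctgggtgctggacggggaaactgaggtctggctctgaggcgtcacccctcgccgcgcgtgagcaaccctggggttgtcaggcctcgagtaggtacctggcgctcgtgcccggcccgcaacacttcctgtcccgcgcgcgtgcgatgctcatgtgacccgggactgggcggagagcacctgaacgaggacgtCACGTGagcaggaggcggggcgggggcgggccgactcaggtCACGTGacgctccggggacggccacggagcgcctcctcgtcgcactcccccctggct
Glb1: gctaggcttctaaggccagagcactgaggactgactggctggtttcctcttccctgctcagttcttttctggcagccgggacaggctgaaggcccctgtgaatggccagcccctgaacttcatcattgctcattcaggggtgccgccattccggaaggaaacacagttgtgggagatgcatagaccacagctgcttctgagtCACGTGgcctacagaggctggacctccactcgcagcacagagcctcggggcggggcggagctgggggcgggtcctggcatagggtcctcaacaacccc
Man2b1: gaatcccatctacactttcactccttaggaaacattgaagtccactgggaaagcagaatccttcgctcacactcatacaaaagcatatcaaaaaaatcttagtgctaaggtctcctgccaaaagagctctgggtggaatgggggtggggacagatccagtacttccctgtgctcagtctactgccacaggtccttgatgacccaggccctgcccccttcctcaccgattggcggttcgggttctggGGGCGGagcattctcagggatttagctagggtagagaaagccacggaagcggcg

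The core CACGTG, which reads the same on both strands, was in the windows of 8 of the 30 genes (26.7%, exact 95% Clopper-Pearson interval 12.3 to 45.9%, counting error only). It was in 8.09% of 27025 genes with a window and in 12.1% of 2051 listed protein-coding genes. The 30 genes had 32 windows, and a match in any window of a gene counted. The 8 genes were Gla and Sumf1, which were higher with beta-glucan, and Ctsf, Gaa, Glb1, Igf2r, Lgmn and Sgsh, which were lower. The core was thus found on both sides of the comparison, in 2 of the 7 higher and 6 of the 23 lower genes. Counted from the RefSeq start, the copies of Igf2r began at -48 and -7, that of Lgmn at -49, that of Glb1 at -48, that of Sgsh at -29 and that of Sumf1 at -11. That of Ctsf began at -79 and that of Gaa at -140, and those of Gla lay farthest upstream, at -227 and -194. The longer TCACGTGA, which contains the core, was in 3 windows (10.0%, exact interval 2.11 to 26.5%), those of Gla, Igf2r and Sumf1, against 1.12% of all genes and 2.29% of listed coding genes.

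None of the 7 mannosidases with a window had CACGTG there, and 5 of the 7 had the SP1 letters GGGCGG on either strand. Of all 30 genes, 22 had the SP1 letters (73.3%), close to the 68.9% of listed coding genes and above the 38.2% of all genes. The AP-1 letters TGANTCA were in 3 windows (10.0% against 8.97% of all genes), in Ap1g2, Glb1 and Laptm4a, and the PU.1 letters GAGGAAGT in 2 (6.67% against 3.69%), in Ctsc and Gla. The NRF1 letters GCATGCGC were in 0 of the 30 genes against 3.05% of all genes, and both strands were searched in each case. These matches describe the letters of short windows and say nothing of binding.

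Reads on the 40 genes came to between 210128 and 309930 per library, which was 1.27 to 1.81% of effective libraries of 15492864 to 20738976 reads. An effective library is the size factor of the library times a common total of 17937135 reads, and not its sequencing depth. The fewest reads on any of the 40 genes in any library were 62. Of 17130 genes tested in the authors' deposited table, 17.9% were listed, 6.3% as higher and 11.6% as lower with beta-glucan. Among the 40 genes, 11 were higher and 29 lower (72.5% lower), and among all 2580 listed protein-coding genes 59.5% were lower. Their median log2 fold change in the authors' deposited table was -0.40, beside -0.39 for listed coding genes. The members just inside the threshold were Man1a2 (authors' deposited adjusted p 0.0382), Laptm5 (0.0426) and Sumf1 (0.0459), and genes just outside it were not in the table.

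The 8 controls and 8 beta-glucan libraries did not overlap in normalized count for 4 of the 40 genes, Hgsnat, Man2b1, Man2c1 and Ap4m1, all lower. That is near the 7.52% of listed genes whose groups did not overlap. Control 12 was the control most like the beta-glucan libraries. In 27 of the 40 genes (67.5%) it lay past the midpoint between the group means, on the beta-glucan side, as it did in 50.4% of all listed genes. Control 13 did so in 16 genes (40.0% against 40.7%), and each of the other 6 controls in 1 to 8 genes. Without controls 12 and 13 the groups of 25 of the 40 genes did not overlap, 6 higher and 19 lower, beside 38.7% of listed genes. These 2 controls were past the midpoint in the most genes, so leaving them out favours separation by itself. Without controls 2 and 3 the number stayed at 4 genes, beside 8.30% of listed genes.

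**Figure D1:**
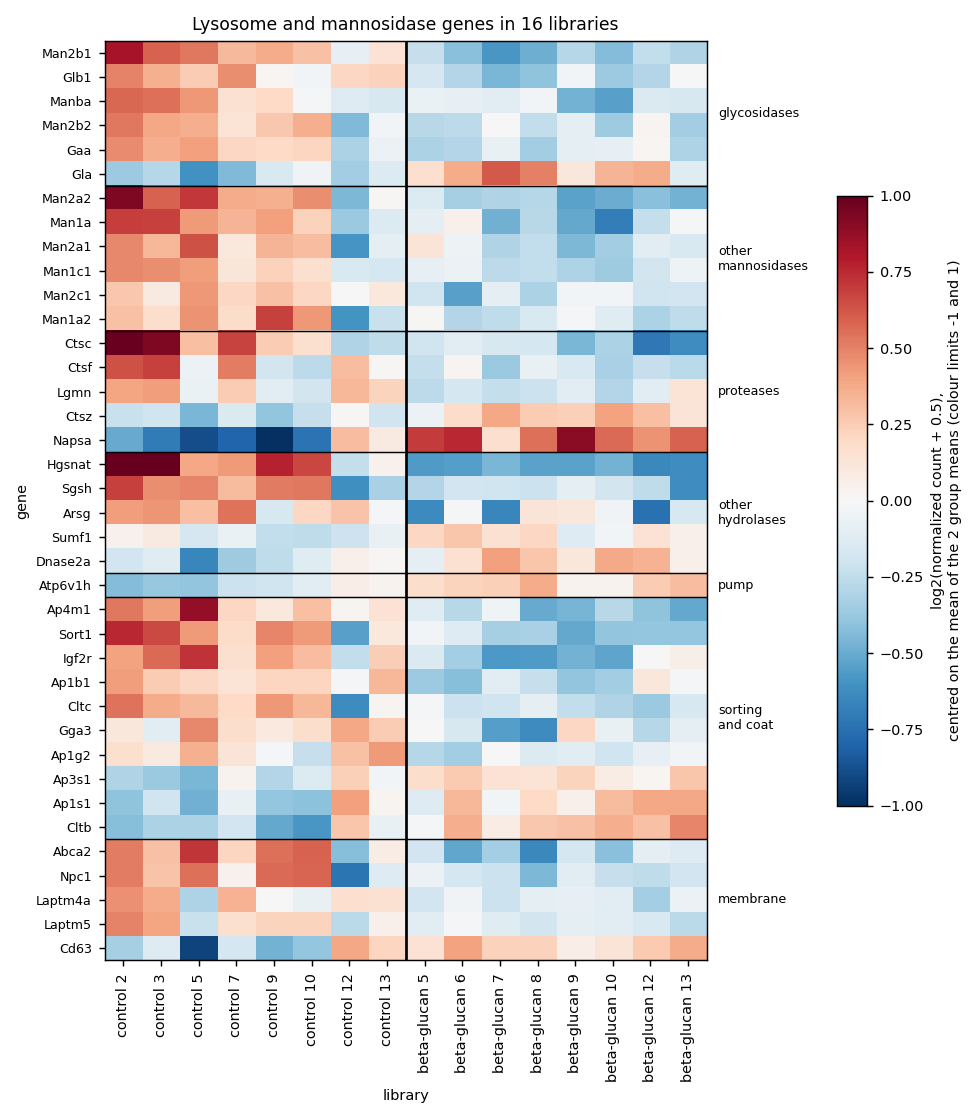
Normalized counts of 38 of the 40 genes (rows, grouped by role) in 16 libraries (columns), as log2(normalized count + 0.5) centred for each gene on the mean of the 2 group means, with red higher and blue lower and colours limited at -1 and 1. The lower genes are mostly red on the left and blue on the right, and control 12 lies on the beta-glucan side in 27 of all 40 genes, 19 lower and 8 higher.

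Control 12 was on the control side for the other 13 genes, among them the glycosidases Gla and Glb1, the proteases Lgmn and Ctsf, Sumf1 and Arsg, Laptm4a, the mannosidase Man2c1, and Ap4m1, Ap1g2 and Gga3. For 6 lower genes, Npc1, Man1a2, Cltc, Man2a1, Man2b2 and Sort1, control 12 lay even below all 8 beta-glucan libraries. Npc1 was 5463 in control 12 and 6647 in the lowest beta-glucan library, and Cltc was 11591 against 13866.

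In 33 of the 40 genes the coefficient of variation was larger among controls than among beta-glucan libraries. Its median was 19.1% in controls and 10.4% in beta-glucan libraries. For the 2378 listed genes with a mean normalized count of at least 50, 71.2% varied more among controls, and the medians were 20.4% and 14.7%. Without controls 12 and 13 the count was 24 of 40 genes and the median among controls 13.7%. Hgsnat had the widest gap, with 33.6% in controls and 4.63% in beta-glucan libraries.

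All 9 mannosidases among the 40 genes were lower with beta-glucan, and none was higher. Of listed protein-coding genes 59.5% were lower, and of those from 6441 bases in length 85.1%. The 9 mannosidases had a median length of 7223 bases (3528 to 10317). Listing chose them, and 9 of the 15 genes of the GO term mannosidase activity were listed in the authors' deposited table (60.0%, beside 17.3% of all its annotated genes, authors' adjusted p 0.0513). The 9 lie on 8 chromosomes, and their enzymes work in the lysosome, the Golgi and the cytosol. Their log2 fold changes, fitted with edgeR and given with standard errors (SE), ran from -0.79 to -0.39.

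Man2b1, the acid alpha-mannosidase of the lysosome (chr8:85083270-85098282, plus strand, mm10), had normalized counts of 20932, 28251 and 39377 in the lowest, median and highest control. With beta-glucan these were 14826, 17346 and 18900. Every beta-glucan library was below every control, and control 12 was the lowest control. The log2 fold change was -0.77 ± 0.11 (SE, n = 8 and 8), or 0.588 of control. Man2b1 was also the most abundant mannosidase per length, with a median of 196 FPKM in controls and 120 with beta-glucan.

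Man2b2, a related lysosomal alpha-mannosidase, ran from 5166 through a median of 8747 to 10134 in controls and from 5474 through 5886 to 7148 with beta-glucan. Its groups overlapped through control 12, whose 5166 was below every beta-glucan library, and through control 13 at 6882. Manba, the lysosomal beta-mannosidase that removes the last mannose of the N-glycan core, ran from 1338 through 1691 to 2226 and from 1026 through 1375 to 1471. Their log2 fold changes were both -0.41, with SE of 0.12 each.

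The Golgi enzymes were lower too, to differing degrees. Man2a2 (alpha-mannosidase IIx, chr7:80349097-80371375, minus strand) ran from 1912 through 3489 to 4997 in controls and from 1807 through 2010 to 2372 with beta-glucan, a log2 fold change of -0.79 ± 0.14. Only control 12, at 1912, was within the beta-glucan range, and control 13 at 2628 was above it. Man2a1 (alpha-mannosidase II) ran from 2173 through 4090 to 5095 and from 2393 through 2849 to 3570, and controls 12, 13 and 7 were below the highest beta-glucan library. Its log2 fold change was -0.41 ± 0.14.

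Man1a, Man1a2 and Man1c1, alpha-1,2-mannosidases that trim N-glycans in the early Golgi, had log2 fold changes of -0.58 ± 0.15, -0.39 ± 0.14 and -0.40 ± 0.10. Man1a ran from 2396 through 4024 to 4989 in controls and from 1923 through 2588 to 3200 with beta-glucan. Man1a2 ran from 929 through 1663 to 2252 and from 1130 through 1222 to 1417. Man1c1 ran from 3539 through 4578 to 5571 and from 3121 through 3448 to 3853. In all 3 genes controls 12 and 13 were the lowest controls. Without them the groups did not overlap, which leaving out the lowest controls favours by itself.

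Man2c1, the cytosolic enzyme that trims free mannose-rich glycans (chr9:57130690-57142722, plus strand), varied least of the 9 mannosidases among controls. It ran from 1615 through 1861 to 2172 in controls and from 1107 through 1409 to 1582 with beta-glucan, with no overlap and a coefficient of variation of 9.41% in controls and 11.1% with beta-glucan. The log2 fold change was -0.40 ± 0.08. The antisense gene Man2c1os covers 6.54% of its exonic bases in GENCODE M21, and whether the counting used strand is not given in the sources used here.

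Of the other 5 lysosomal glycosidases, 2 were higher and 3 lower. Gla, alpha-galactosidase A, which removes terminal galactose from globotriaosylceramide (chrX:134588149-134601125, minus strand), had normalized counts of 4617, 5657 and 6858 in the lowest, median and highest control. With beta-glucan they were 6464, 8996 and 10786. Only beta-glucan 13, at 6464, fell within the control range, and control 12 at 5539 was near the control median. The log2 fold change was 0.60 ± 0.11, or 1.51-fold.

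Glb1, the beta-galactosidase of the lysosome, ran the other way, from 3760 through 4529 to 5391 in controls and from 2789 through 3122 to 3824 with beta-glucan. The overlap consisted of control 10 at 3760 and beta-glucan 13 at 3824, and the log2 fold change was -0.50 ± 0.10. Tmppe covers 5.49% of the exonic bases of Glb1 on the same strand. Gaa, the acid alpha-glucosidase that degrades glycogen, ran from 4107 through 5916 to 7080 and from 4007 through 4474 to 5183 (-0.39 ± 0.10).

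Per length, the balance between Gla and Glb1 differed within single libraries, where scaling cannot enter. Their FPKM ratio had a median of 1.12 in controls (0.906 to 1.68) and 2.68 with beta-glucan (1.56 to 3.56), with a small overlap. The ratio is built from members selected on opposite differences, so its separation follows in part from the selection.

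**Figure D2:**
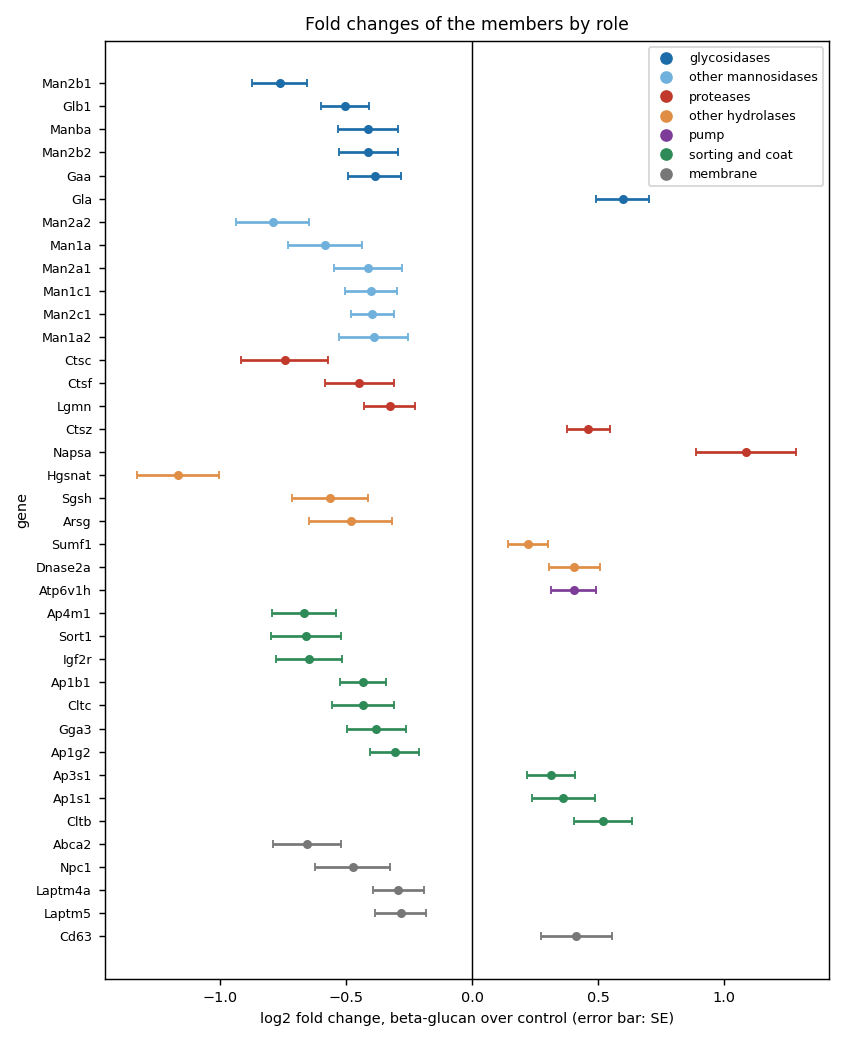
Log2 fold change of beta-glucan over control for 38 of the 40 genes, coloured by role, with error bars of 1 SE from edgeR fits to 8 and 8 libraries. All 9 mannosidases lie left of 0, while the proteases, the other hydrolases and the sorting genes lie on both sides.

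Of 5 lysosomal proteases, 2 were higher and 3 lower. Ctsz, cathepsin Z, a carboxypeptidase (chr2:174427493-174439039, minus strand), was the most abundant of the 40 genes, with a mean of 1084 FPKM over all libraries, or 26.8% of their summed FPKM. Its normalized counts were 20059, 23770 and 27761 in the lowest, median and highest control, and 26444, 32662 and 36388 with beta-glucan. The overlap consisted of control 12 at 27761 and beta-glucan 5 at 26444. The log2 fold change was 0.46 ± 0.08.

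Napsa, an aspartic protease (chr7:44572380-44586862, plus strand), had the largest difference upward and was among the least abundant, with median FPKM of 2.67 in controls and 6.58 with beta-glucan. Its normalized counts ran from 76.3 through 127 to 261 in controls and from 236 through 314 to 393 with beta-glucan, a log2 fold change of 1.09 ± 0.20. Control 12, at 261, was the only control above the lowest beta-glucan library. The antisense gene Gm15396 covers 18.9% of its exonic bases in GENCODE M21.

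Ctsc, which activates the serine proteases of leukocyte granules, ran from 5020 through 7481 to 12221 in controls and from 3767 through 5155 to 5718 with beta-glucan. Controls 2 and 3 were the highest of their group, at 12221 and 11768, and controls 12 and 13, at 5020 and 5176, lay among the beta-glucan libraries. The log2 fold change was -0.74 ± 0.17. Lgmn, the asparaginyl endopeptidase that also processes other cathepsins, ran from 11360 through 15218 to 17265 and from 10542 through 11264 to 14174 (-0.33 ± 0.10). Ctsf, a cysteine protease, ran from 460 through 617 to 884 and from 424 through 467 to 560 (-0.45 ± 0.14).

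Within libraries the FPKM ratio of Ctsz to Lgmn was 2.24 to 3.33 in controls and 3.42 to 5.56 with beta-glucan, without overlap. The FPKM ratio of Ctsz to Ctsc had a median of 11.04 in controls and 27.7 with beta-glucan, with overlap. As for Gla and Glb1, the selection of the genes on opposite differences fixes part of these separations.

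Among the other hydrolases and their helpers, 3 were lower and 2 higher. Hgsnat, the membrane enzyme that acetylates the terminal glucosamine of heparan sulfate (chr8:25944453-25976753, minus strand), had the largest difference of the 40 genes. Its normalized counts were 3109, 5373 and 8577 in the lowest, median and highest control and 2342, 2519 and 2678 with beta-glucan. The beta-glucan libraries were tightly grouped, while the controls spread widely, with control 2 and control 3 highest and control 12 and control 13 lowest. The log2 fold change was -1.17 ± 0.16, or 0.445 of control.

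Sgsh, the sulfatase that takes the sulfate from glucosamine, ran from 1903 through 4051 to 4681 in controls and from 1890 through 2524 to 2715 with beta-glucan (-0.57 ± 0.15). Controls 12 and 13, at 1903 and 2321, were below most beta-glucan libraries, and the other 6 controls were above all of them. Card14 covers 21.6% of the exonic bases of Sgsh on the opposite strand. Arsg, a further sulfatase that acts on heparan sulfate, was the least abundant of the 40 genes and ran from 98.3 through 135 to 160 and from 65.2 through 103 to 120 (-0.48 ± 0.16).

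Sumf1, which switches on all sulfatases by modifying a cysteine of their active site, was higher, with 2260, 2470 and 2859 in the lowest, median and highest control and 2455, 2976 and 3257 with beta-glucan (0.22 ± 0.08). Dnase2a, which digests the DNA of engulfed cells, was higher as well, with 1960, 2766 and 3202 against 2905, 3588 and 4094 (0.41 ± 0.10). Its value is uncertain, because Mast1 covers 30.0% of its exonic bases on the opposite strand.

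**Figure D3:**
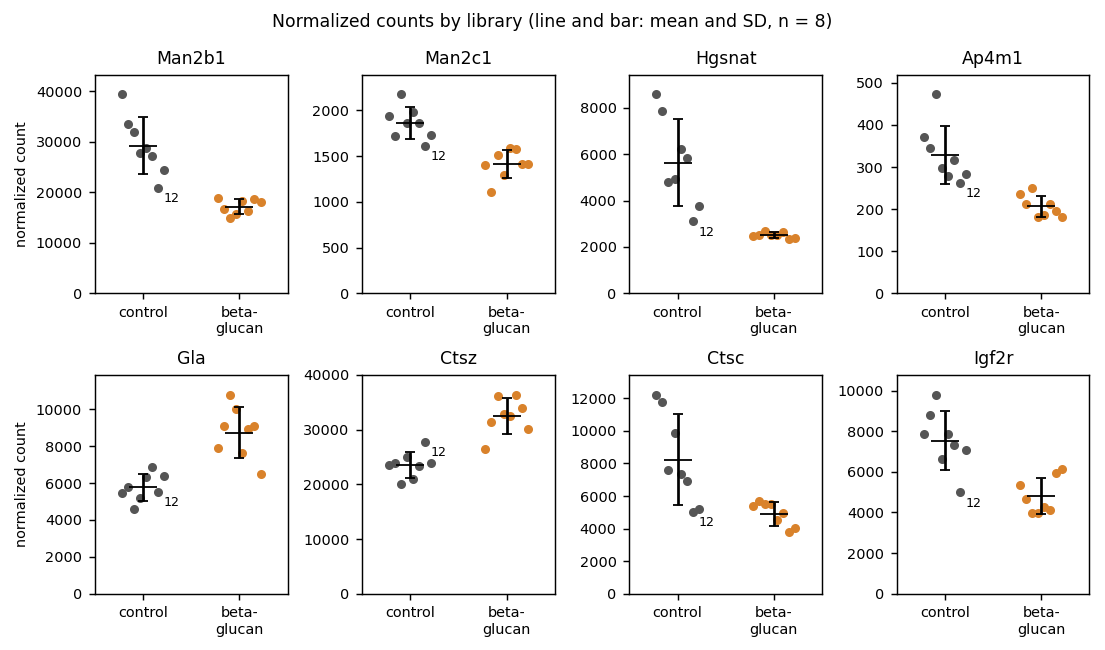
Normalized counts of 8 genes in each control and beta-glucan library (points), with group means and SD (n = 8 per group). Control 12 is marked with its number: the groups of Man2b1, Man2c1, Hgsnat and Ap4m1 do not overlap, control 12 is within the beta-glucan range for Ctsz, Ctsc and Igf2r, and it lies near the control median for Gla.

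Genes of sorting and coats were 3 higher and 7 lower, and both clathrin and the AP-1 adaptor had subunits of either direction. The receptors Igf2r and Sort1 and their adaptor Gga3 were lower. Igf2r, the large mannose 6-phosphate receptor, ran from 4999 through 7592 to 9792 in controls and from 3982 through 4470 to 6159 with beta-glucan, a log2 fold change of -0.65 ± 0.13. Only control 12, at 4999, was below the highest beta-glucan library. Sort1, a sorting receptor that works without mannose 6-phosphate, ran from 2697 through 5284 to 6621 and from 2757 through 3070 to 3857 (-0.66 ± 0.14), and control 12 was below all 8 beta-glucan libraries. Gga3, an adaptor of these receptors, ran from 716 through 875 to 1080 and from 502 through 711 to 892 (-0.38 ± 0.12).

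Clathrin heavy chain Cltc ran from 11591 through 22559 to 26122 in controls and from 13866 through 15553 to 17790 with beta-glucan (-0.43 ± 0.12). Its light chain Cltb ran the other way, from 558 through 671 to 1013 and from 830 through 1025 to 1172 (0.52 ± 0.11). Control 12 was on the beta-glucan side for both. The FPKM ratio of Cltb to Cltc had a median of 0.0513 in controls and 0.120 with beta-glucan, and control 12 had the highest ratio of all controls, 0.153. This ratio too is of genes selected on opposite differences.

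In the AP-1 adaptor, the large subunit Ap1b1 ran from 5699 through 6664 to 7651 and from 4269 through 4696 to 6206 (-0.43 ± 0.09), and the large subunit Ap1g2 from 518 through 674 to 819 and from 479 through 560 to 607 (-0.31 ± 0.10). The small subunit Ap1s1 was higher, from 1426 through 1629 to 2652 and from 1825 through 2384 to 2607 (0.36 ± 0.12), and control 12 was above all beta-glucan libraries. The small AP-3 subunit Ap3s1 was higher too, from 1228 through 1461 to 1991 and from 1713 through 1886 to 2053 (0.31 ± 0.09). On the opposite strand, Thtpa and the antisense gene Gm20687 each cover 9.88% of the exonic bases of Ap1g2.

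Ap4m1, the medium subunit of the AP-4 adaptor (chr5:138172002-138180429, plus strand), was lower without overlap. It ran from 263 through 307 to 472 in controls and from 180 through 203 to 249 with beta-glucan (-0.67 ± 0.13). Taf6 covers 22.1% of its exonic bases and Mcm7 5.99%, both on the opposite strand, so its counts are uncertain to that extent.

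Atp6v1h, a V1 subunit of the proton pump that acidifies lysosomes, was higher, with 2282, 2668 and 3220 in the lowest, median and highest control and 3150, 3611 and 3993 with beta-glucan (0.40 ± 0.09). Only control 12, at 3220, was within the beta-glucan range. Further subunits and the pump's accessory proteins were looked up in a list of 14, and 6 were listed, beside 17.9% of all genes tested. Atp6v1c1 (0.47), Atp6v1b2 (0.53), Atp6v1d (0.31), Atp6v1e1 (0.31) and Atp6v1a (0.19) were higher on the log2 scale in the authors' deposited table, and Atp6v1g2, at a mean of 78.3 normalized counts in controls, was lower (-0.77).

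Of 5 membrane proteins, 1 was higher. Cd63, a tetraspanin of late endosomes, ran from 8463 through 13464 to 20972 in controls and from 16796 through 18856 to 21282 with beta-glucan (0.41 ± 0.14). Control 12 at 20972 and control 13 at 18605 lay inside the beta-glucan range and the other 6 controls below it. Npc1, which exports cholesterol from the lysosome, ran from 5463 through 12008 to 13576 and from 6647 through 7893 to 8707 (-0.48 ± 0.15). Abca2, a lipid transporter, ran from 904 through 1614 to 1995 and from 779 through 1012 to 1141 (-0.66 ± 0.14), and control 12 was the only control within the beta-glucan range.

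Laptm5, a membrane protein of blood-cell lysosomes, was second in level after Ctsz and differed by little, from 34731 through 47771 to 59142 in controls and from 34686 through 38558 to 41425 with beta-glucan (-0.28 ± 0.10). Laptm4a ran from 6452 through 8950 to 11020 and from 6335 through 7487 to 7822 (-0.29 ± 0.10). Both ranges of the beta-glucan group lay largely inside those of the controls.

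**Figure D4:**
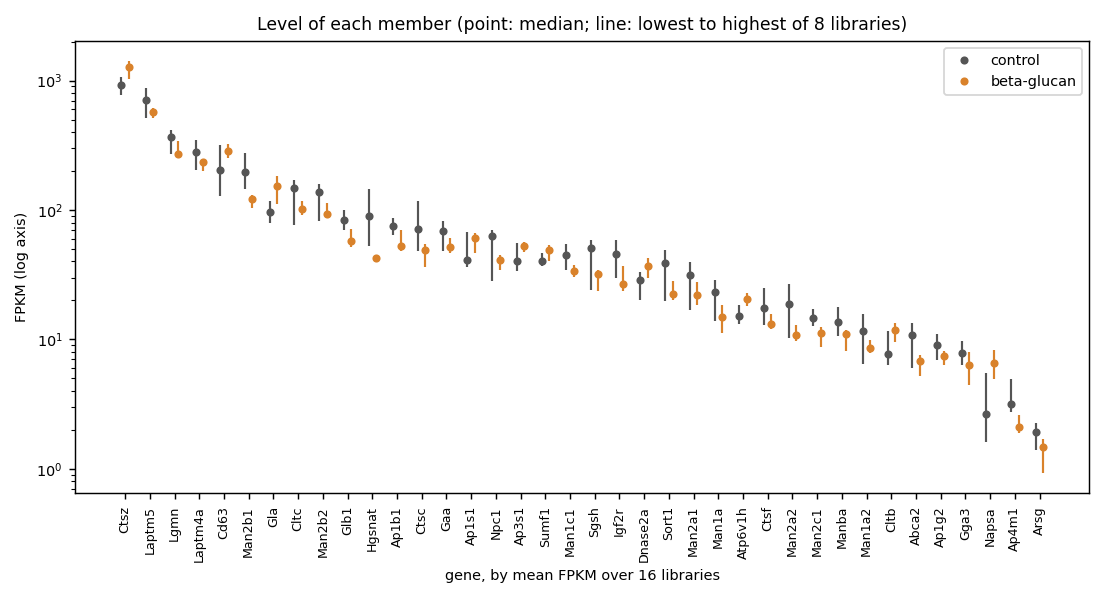
Level of 38 of the 40 genes as FPKM on a log axis, with points for the group median and lines from the lowest to the highest of 8 libraries. Levels run from Ctsz at 1084 FPKM to Arsg at 1.62 FPKM on average over all libraries, and control lines are mostly longer than beta-glucan lines.

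By level, 9 of the 40 genes were over 100 FPKM on average and 7 under 10 FPKM. The order was Ctsz, Laptm5 (624), Lgmn (314), Laptm4a (255), Cd63 (250.3), Man2b1 (161), Gla (124), Cltc (121) and Man2b2 (113). Neighbours in this order were mostly not apart: in controls the FPKM ranges of all neighbours overlapped, except those of Laptm5 with Lgmn and of Man2b1 with Gla. The median of the 40 genes was 40.0 FPKM, beside 6.48 FPKM for listed coding genes. Summed by role, the FPKM of the 5 proteases had a median of 1407 in controls (1162 to 1537) and 1611 with beta-glucan (1352 to 1729), with overlap. Ctsz, at median FPKM of 920 and 1264, made up most of that sum, and Lgmn, Ctsc and Ctsf were lower. That of the 8 glycosidases had a median of 713 (579 to 847) and 608 (565 to 658), with overlap. That of the 6 other mannosidases had a median of 147 (95.2 to 173) and 101 (92.9 to 115), also with overlap.

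Higher genes were shorter than lower ones. The median gene length in the deposited table was 3265 bases for the 11 higher genes and 5722 for the 29 lower ones. The same held for listed coding genes, at 3405 and 6216 bases, close to the values of the 40 genes. With listed coding genes split by length into 3 classes of like size, 35.4% were lower in the shortest class (up to 3561 bases), and 7 of 14 members there. In the longest class (from 6441 bases) 85.1% were lower, and 12 of 13 members there. Spearman's correlation of length with log2 fold change was -0.29 over 2580 listed coding genes and -0.50 over the 40 genes, which share the same 16 libraries. With the trend of length removed, all 40 genes kept their direction, which their selection by the same contrast largely fixes. The median log2 fold change of the 40 genes was then -0.37, beside -0.42 for all listed genes.

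**Figure D5:**
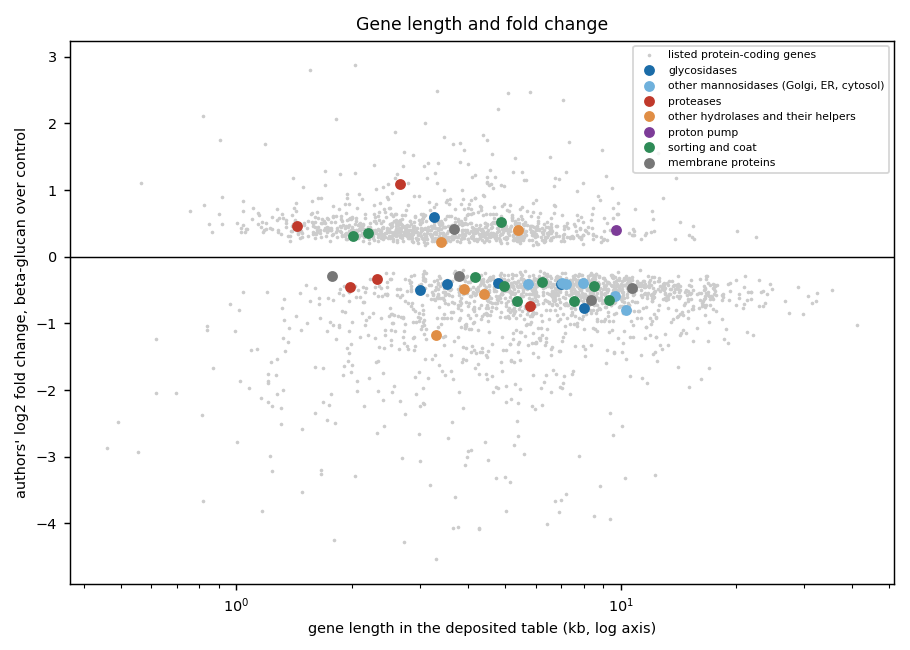
Gene length in kilobases (log axis) against the authors' deposited log2 fold change for listed protein-coding genes (grey) and 38 of the 40 genes (coloured by role). Genes in the longest class (from 6441 bases) are mostly below 0, with 12 of 13 members lower, and the 6 mannosidases outside the lysosome are 5722 to 10317 bases long.

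Genes that steer lysosome number and autophagy were looked up in further lists, where the listed genes are again those that passed the authors' test. Of all genes tested 17.9% were listed, so a few listed genes per list are no result about the list. Of 8 TFEB-family factors and partners, Tfec, a family member of macrophages, and Flcn, which restrains the family, were listed, both lower (-0.47 and -0.35 on the log2 scale in the authors' deposited table). Of 20 genes of mTORC1 signalling at the lysosome, the GTPase Rraga was higher (0.38) and the inhibitor subunit Depdc5 lower (-0.44). Of 19 genes of lysosome tethering and movement, Tgfbrap1 (-0.50) and Vps39 (-0.26) were lower.

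Of 34 autophagy genes, 8 were listed, a share near the 17.9% of all genes tested. The kinases Ulk1 (-0.55) and Ulk2 (-0.60), the lipid transfer proteins Atg2a (-0.53) and Atg2b (-0.48) and the lipid kinase subunit Pik3r4 (-0.31) were lower in the authors' deposited table. Atg12 (0.31), Atg4a (0.29) and the cargo receptor Sqstm1 (0.31) were higher. Of 18 further genes of N-glycan trimming, Engase (-0.39), which cuts glycans free in the cytosol, and Uggt1 (-0.44), a folding sensor of glycoproteins, were lower.

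Of 9 macrophage markers, 6 were listed, beside 17.9% of all genes tested. All 6 were lower (Adgre1, C1qa, Csf1r, Itgam, Mertk and Mrc1). Their summed level was 1626 to 3135 FPKM in controls and 1405 to 1622 with beta-glucan. Control 12 had the lowest sum of all controls, 1626 FPKM, and control 2 the highest, 3135. The same libraries were lowest and highest among controls in reads on the 40 genes relative to the effective library, at 1.27 and 1.81%. All 6 markers were counted in every library.

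Of 10 osteoclast markers, 2 were listed, a share near the 17.9% of all genes tested. These were Itgb3 and Atp6v0d2, both higher, with summed levels of 14.0 to 104 FPKM in controls and 75.7 to 141 with beta-glucan. In this sum controls 12 and 13, at 83.0 and 104 FPKM, lay within the beta-glucan range, and the other 6 controls were at 47.5 or below. Atp6v0d2 made up most of the sum, with a mean of 36.3 FPKM in controls against 5.45 for Itgb3. For Itgb3 alone, controls 12 and 13, at normalized counts of 542 and 688, lay below every beta-glucan library (lowest 898). Control 5, at 1018, lay within the beta-glucan range of Itgb3. Of 5 B cell markers Cd79b was listed, lower, at 0.626 to 1.79 and 0.214 to 1.15 FPKM. None of the neutrophil, dendritic cell, T cell, fibroblast and mast cell markers was listed. The part of these markers in the lysosomal differences was not tested. Fewer cells of a type and less RNA per cell cannot be told apart in bulk RNA.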

How the data were processed

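RNA of 16 libraries, 8 per group, was extracted and sequenced as the labels describe, and the tools in the submitters' processing notes are DESeq2, HTSeq 0.6.1, STAR 2.5 and CASAVA, with build mm10. Neither the annotation release nor the strand setting is given in the sources used here. Deposited read counts are whole numbers per gene. The normalized counts as deposited (a signal) are those counts over a size factor for each library (0.864 to 1.16). The deposited FPKM divide them by gene length and a common total of 17937135 reads. The authors give log2 fold changes with beta-glucan over control, and their p-values are adjusted over 17130 genes, of which the 3071 listed are in the table. The unlisted 14059 are not analysed here. Enrichment tables by the authors give p-values and gene names per term.

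The members, role lists, further gene lists, markers and motifs were chosen with earlier results of these data known. Members were taken from the Lysosome row and by name. Log2 fold changes and SE came from edgeR 4.0.16 in R 4.3.3 (glmQLFit on all listed genes passing filterByExpr, deposited size factors), with no p reported, because the same contrast chose the members. The SE is the fold change over the root of the quasi-likelihood F. The fit was checked on simulated counts with the same dispersion for all genes and both groups. That setting lacks the wider spread among controls seen here, so the check does not cover it. Within each role the text was to give up to 4 members with the largest fold change and the most abundant one, all mannosidases, and the 3 members nearest the threshold, and 38 of the 40 are given. The other 2 are in the counts and medians but are not reported here singly. Exon overlaps came from GENCODE M21, whose coordinates matched for 38 of the 40 genes, and promoters from RefSeq. No promoter window was used for 10 genes, among them Ap3s1, Atp6v1h, Hgsnat, Man1a2, Man2a2, Napsa, Npc1 and Sort1. Within groups all 56 pairs of libraries differed by more than counting noise (chi-square over degrees of freedom from 11.8 to 217). The spread between libraries may be technical, since the labels do not name separate animals. A planned comparison of mannosidase proteins was not run.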

Additional observations from a re-analysis of the deposited data

Results flagged for a closer look

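Of 80 groups of 8 values (1 per gene and group), 2 held a library far from the rest by Dixon's criterion at 95%, where chance alone flags about 1 in 20, or 4. Both were in beta-glucan 13. Its Sgsh normalized count of 1890 was the lowest of the beta-glucan group, with 2370 next. Its Lgmn normalized count of 14174 was the highest, with 12020 next.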

How the results depend on the processing

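The counts of 11 higher and 29 lower genes, and of 0 higher and 9 lower mannosidases, were the same under every alternative run, which the selection of the genes largely fixes. Scaling by TMM factors from the listed genes moved the median log2 fold change of the 40 genes from -0.40 to -0.16, and that of all listed genes in the fit from -0.41 to -0.16. Newly computed size factors gave -0.19, DESeq2 1.42.0 gave -0.40 and no filter on low counts gave -0.40. The listed genes were chosen for differing and 64.9% of them were lower. TMM and new size factors computed from them alone therefore draw these medians toward 0. Under TMM the median shift over the 40 genes was 0.24, and 21 of the fold changes moved by more than 1 SD between replicates, as did 15 under newly computed size factors. Without controls 2 and 3 the median was -0.32, and without controls 12 and 13 it was -0.49.

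The number of genes whose groups did not overlap also moved. It was 4 with all libraries, 25 without controls 12 and 13 and 4 without controls 2 and 3. It was 14 without control 12 and 7 without beta-glucan 13. It ran from 4 to 14 when 1 library was left out. Among all listed genes the share without overlap rose too. It was 7.52% with all libraries, 38.7% without controls 12 and 13, 17.03% without control 12 and 10.9% without beta-glucan 13. The rise was thus not confined to the 40 genes, and leaving out controls 12 and 13, the nearest to the beta-glucan libraries, favours it by itself. Leaving out control 12 moved the fold change of 18 of the 40 genes more than leaving out any other library did, and control 2 did so for 6. The promoter share was 10.0% for the 8-letter motif and 26.7% for its 6-letter core.

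Same-numbered libraries deviated together in 3 of 6 pairs (correlation over 0.1), and 1 of these 6 controls was best matched by its own number. The labels do not say that a number marks a shared animal, so the numbers were not taken to pair the samples. With the replicate number as a block in the 12 libraries that share numbers, the counts were 11 higher and 29 lower and the median -0.32. The same 12 libraries without the block, an alternative chosen after seeing the data, gave -0.33. The lowest read number of any of the 40 genes was 62, and genes that were not listed are not described.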
